A study of Mus musculus with 4 samples.

Results

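The genes described here are the G1 cyclins, the kinases that D-type cyclins switch on, and the CIP/KIP inhibitors that hold cyclin-kinase complexes back. The D-type cyclins Ccnd1, Ccnd2 and Ccnd3, the E-type cyclins Ccne1 and Ccne2, the kinases Cdk4 and Cdk6 and the inhibitors Cdkn1a, Cdkn1b and Cdkn1c were taken by symbol. They make 10 of the 28611 rows of the expression table, and all 10 were among the 15528 genes that passed the filter on low values. RNA was sequenced from 2 libraries of Hdac3cKO mice and 2 libraries of Hdac3flox/flox mice. Hdac3cKO mice carried Hdac3flox/flox and Foxl2-CreERT2, a Cre recombinase that is made where Foxl2 is expressed, which in the ovary is the granulosa cell (GC), and that enters the nucleus only with tamoxifen. Hdac3flox/flox mice, the controls, carried the same floxed alleles and no Cre, so an effect of the Cre itself cannot be told apart from the loss of Hdac3 in these 4 libraries. All mice were females on the C57BL/6 background and were given tamoxifen once by the intraperitoneal route when 18 days old (20 mg per kg). They were 24 days old, 6 days later, at the labelled age. Elsewhere the study gave mice pregnant mare serum gonadotropin (PMSG) as a substitute for FSH. Its methods for the RNA sequencing do not state whether these mice received PMSG. The levels below can therefore not be assigned to untreated or to PMSG-treated ovaries. The study describes the depletion of Hdac3 in this model as incomplete, and the series design speaks of 2 mice per group.

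The labels name GCs as the cell type, whereas the protocol for the RNA starts from whole ovaries. Markers of GCs were measured at a summed level of 10412 and 10027 RPKM in the Hdac3cKO libraries, against 8903 and 8422 RPKM in the Hdac3flox/flox libraries. RPKM is reads per kilobase of exon and scaled to the size of the library. The largest part of the GC sum was Inha, at 6094 and 5776 RPKM in Hdac3cKO, against 5280 and 4946 RPKM in Hdac3flox/flox. Of the 10 GC markers 6 were called higher and 2 lower, so the sum does not stand for each of them. Genes of oocytes, theca cells, endothelium and stroma were also present in all 4 libraries, so the RNA was not from GCs alone. In bulk RNA of this kind, fewer cells of a type and less RNA per cell cannot be told apart. The library totals behind the values lay between 17621129 and 18452073 reads. Hdac3 itself had 19.4 and 19.2 RPKM in Hdac3cKO, against 24.4 RPKM in both Hdac3flox/flox libraries, which goes with the labels. Its log2 fold change was −0.34 (SE 0.032, adjusted p = 0.00935 from limma).

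As background, the G1 cyclins carry a cell from growth signals into DNA synthesis. D-type cyclins bind CDK4 and CDK6, and E-type cyclins bind CDK2, and these complexes phosphorylate the retinoblastoma proteins, which then release the E2F factors that transcribe the genes of S phase. The CIP/KIP proteins p21 (Cdkn1a), p27 (Cdkn1b) and p57 (Cdkn1c) bind the complexes and restrain CDK2 above all, while INK4 proteins block CDK4 and CDK6. In the mouse ovary Ccnd2 is the D-type cyclin that FSH induces in GCs, and GCs of mice that lack Ccnd2 divide poorly in response to FSH, whereas p27 is known for the exit from division that goes with luteinisation.

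RefSeq promoters, which run from 250 bases before to 50 bases after an annotated transcript start on GRCm38.p6, were available for 6 of the members, with a pair each for Ccnd3 and Cdkn1a. Those of Ccnd1, Ccnd2, Ccne2 and Cdkn1c were not analysed here. The 4 below are shown because these genes moved in different ways, with Cdk6 and Cdkn1a higher in Hdac3cKO, Cdkn1b lower and Cdk4 not called. They are the promoter of Cdk6 at chr5:3343643-3343942, that of Cdk4 at chr10:127063285-127063584, that of Cdkn1b at chr6:134920151-134920450 and the second promoter of Cdkn1a at chr17:29093519-29093818, all on the plus strand. Capitals mark the motif matches described after them.
Cdk6 promoter: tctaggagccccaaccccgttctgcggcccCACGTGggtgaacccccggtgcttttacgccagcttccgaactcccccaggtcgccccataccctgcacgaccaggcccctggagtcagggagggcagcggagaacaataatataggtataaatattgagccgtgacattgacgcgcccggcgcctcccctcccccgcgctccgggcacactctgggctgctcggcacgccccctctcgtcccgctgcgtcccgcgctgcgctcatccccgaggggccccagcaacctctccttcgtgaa
Cdk4 promoter: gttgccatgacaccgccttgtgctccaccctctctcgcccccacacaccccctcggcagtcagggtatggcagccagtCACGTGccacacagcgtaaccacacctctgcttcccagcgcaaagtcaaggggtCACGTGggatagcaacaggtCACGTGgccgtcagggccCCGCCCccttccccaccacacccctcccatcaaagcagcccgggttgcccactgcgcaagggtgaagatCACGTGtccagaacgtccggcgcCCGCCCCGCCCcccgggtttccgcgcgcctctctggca
Cdkn1b promoter: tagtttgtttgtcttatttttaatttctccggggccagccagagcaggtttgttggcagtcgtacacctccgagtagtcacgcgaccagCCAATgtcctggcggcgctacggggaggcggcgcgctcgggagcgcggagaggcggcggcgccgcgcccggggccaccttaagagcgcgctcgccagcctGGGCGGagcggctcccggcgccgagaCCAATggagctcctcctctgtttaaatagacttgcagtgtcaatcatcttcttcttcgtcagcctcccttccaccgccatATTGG
Cdkn1a second promoter: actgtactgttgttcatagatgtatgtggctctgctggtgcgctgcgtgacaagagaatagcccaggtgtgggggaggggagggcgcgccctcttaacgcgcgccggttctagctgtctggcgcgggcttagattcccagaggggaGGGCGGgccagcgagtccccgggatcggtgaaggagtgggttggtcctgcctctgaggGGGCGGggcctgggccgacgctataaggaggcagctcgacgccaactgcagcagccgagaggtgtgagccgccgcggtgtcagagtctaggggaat

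Short motifs were searched on both strands. The GC box, GGGCGG, is in 35.7% of all 32851 RefSeq promoters of this length, the CCAAT box, CCAAT, in 37.4%, and the E box CACGTG, the sequence that Myc and its relatives bind, in 7.15%. The FOXO site, TGTTTAC or TGTTTAT, is in 7.97% of them. The Cdk4 promoter held 4 E boxes and 3 GC boxes, of which the last 2 GC boxes share a base. Of the 3 others printed, Cdk6 held 1 E box, Cdkn1b held 1 GC box and 3 CCAAT boxes, and the second Cdkn1a promoter held 2 GC boxes. The Ccne1 promoter held 4 GC boxes, and the only FOXO site lay in the first Ccnd3 promoter. None of the 8 promoters held the E2F sites searched (TTTCCCGC, TTTGGCGC, TTTCGCGC and TTTGCCGC, in 2.26% of all promoters), the CRE TGACGTCA (in 1.79%) or the GATA sites AGATAA and TGATAA (in 18.6%). A match says only that these letters are in the window, and their absence says nothing of the factor.

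**Figure D1:**
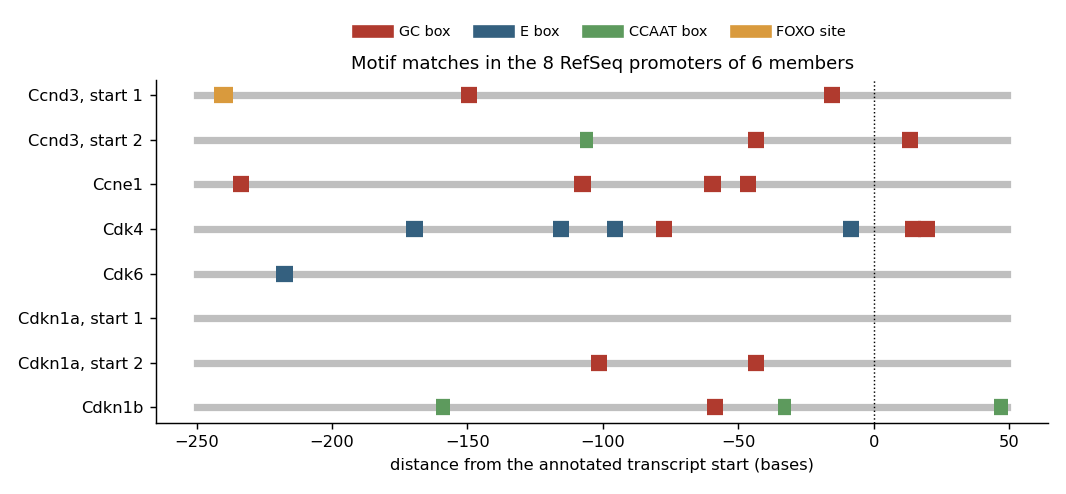
Motif matches in the 8 RefSeq promoters of 6 members, by distance from the annotated transcript start in bases (dotted line at 0). Each grey bar is a promoter and each coloured block a match, and the 4 E boxes (blue) of Cdk4 stand out beside the single E box of Cdk6.

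Of the 10 members, 5 were called higher in Hdac3cKO, 1 was called lower and 4 were not called. The test was limma on log2(RPKM + 0.1) with Benjamini-Hochberg adjustment over all 15528 genes tested, two-sided, and calls were made below an adjusted p of 0.05. Across all tested genes 18.7% were called, with 7.68% called higher and 11.0% called lower. Both Hdac3cKO libraries lay above both Hdac3flox/flox libraries for 7 members and below them for 1 member, against 26.7% and 37.8% of all tested genes. The 6 called changes ranged in size from 0.32 to 0.61 as log2 fold changes, and none reached 2-fold. The median log2 fold change of the members was 0.35, beside −0.04 over all tested genes. The members were chosen with earlier results of these data known, so these values describe the set and do not test it. The order of the mean levels in RPKM was the same in both genotypes. It ran from Cdk4 through Ccnd2, Cdkn1b, Cdk6, Ccne2, Ccnd3, Ccne1, Cdkn1a and Ccnd1 down to Cdkn1c. The ranges of neighbours in this order did not overlap within a genotype. The order depends on the exon lengths used, and by reads Ccnd2 lay above Cdk4 in every library.

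**Figure D2:**
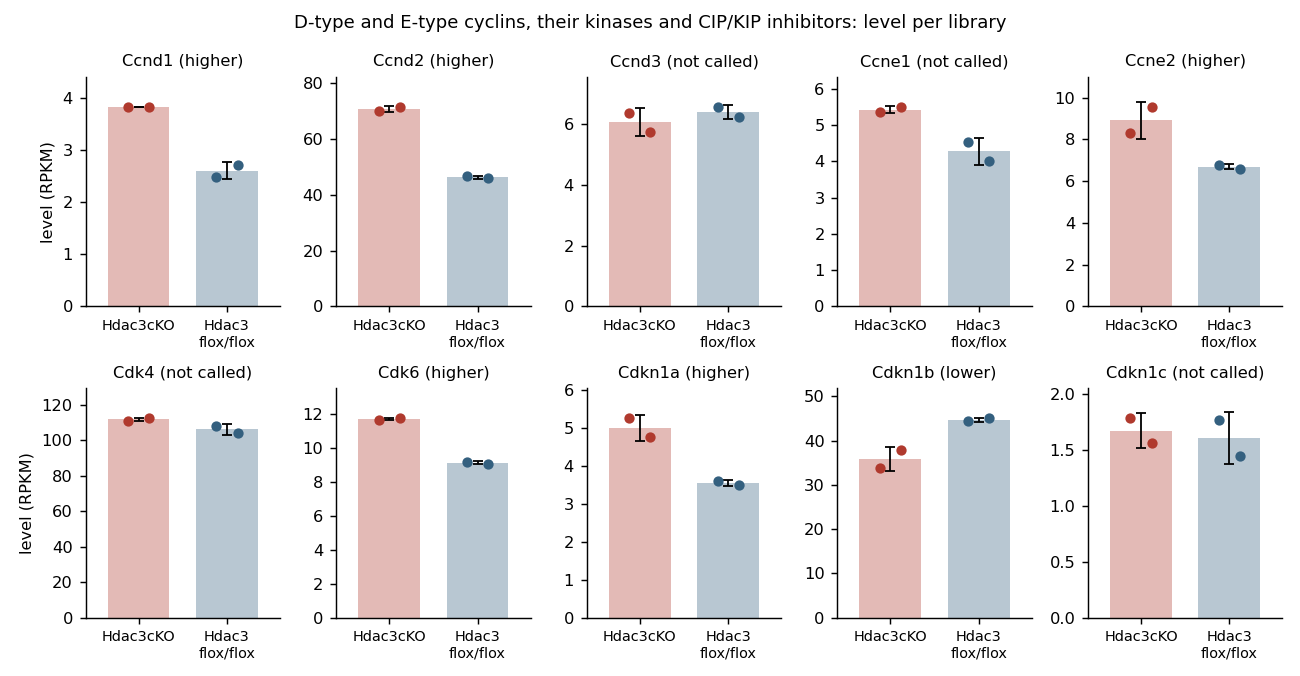
Level of each member in RPKM, with Hdac3cKO (red) left of Hdac3flox/flox (blue). Points are libraries, bars are means that start at 0 and error bars are SD (n = 2 each), and the call is given in each title. The 2 points of a genotype lie close together for Ccnd2 (70.1 and 71.4 RPKM in Hdac3cKO, against 46.7 and 45.9 RPKM in Hdac3flox/flox), while the points of Ccnd3 and Cdkn1c overlap between genotypes.

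Among the D-type cyclins, Ccnd2 and Ccnd1 were higher in Hdac3cKO and Ccnd3 was not called. Ccnd2 (chr6:127125162-127152193, minus strand, GRCm38), the main D-type cyclin of GCs, was measured at 70.1 and 71.4 RPKM in the Hdac3cKO libraries, against 46.7 and 45.9 RPKM in the Hdac3flox/flox libraries. The groups were far apart relative to the spread within each, and the log2 fold change of 0.61 (SE 0.029, adjusted p = 0.00351 from limma) was the largest among the members. Its reads were 12166 and 11845 in Hdac3cKO and 8038 and 7915 in Hdac3flox/flox, a ratio of 1.53 once scaled to the library totals, and the exact 95% interval for counting error alone ran from 1.50 to 1.56. Ccnd1 (chr7:144929931-144939925, minus strand), the D-type cyclin that many mitogens induce, stood at a much lower level, at 3.83 RPKM in both Hdac3cKO libraries, against 2.49 and 2.72 RPKM in the Hdac3flox/flox libraries. Its log2 fold change was 0.54 (SE 0.083, adjusted p = 0.0224 from limma), and its reads were 333 and 318 in Hdac3cKO and 215 and 235 in Hdac3flox/flox. Ccnd3 (chr17:47505051-47599691, plus strand), the remaining D-type cyclin, had 6.39 and 5.74 RPKM in Hdac3cKO and 6.57 and 6.25 RPKM in Hdac3flox/flox. These groups overlapped, and the log2 fold change of −0.08 had a 95% interval from −0.28 to 0.12 (adjusted p = 0.504 from limma). That interval lies below the one of Ccnd2, which ran from 0.54 to 0.69 on the same scale, although the difference between the 2 genes was not tested.

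Summed over the 3 genes, the level of D-type cyclins was 80.3 and 81.0 RPKM in Hdac3cKO, against 55.7 and 54.8 RPKM in Hdac3flox/flox. Ccnd2 made up most of the sum in every library, at 87.3% and 88.2% in Hdac3cKO and 83.7% and 83.6% in Hdac3flox/flox. The share of Ccnd3 was 7.96% and 7.09% in Hdac3cKO, against 11.8% and 11.4% in Hdac3flox/flox. For Ccnd1 the share was 4.77% and 4.73% in Hdac3cKO and 4.47% and 4.96% in Hdac3flox/flox, so these groups overlapped.

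Both E-type cyclins, which bind CDK2 at the step into S phase, had higher values in both Hdac3cKO libraries, and only Ccne2 was called. Ccne2 (chr4:11191351-11204779, plus strand) had 8.28 and 9.55 RPKM in Hdac3cKO, against 6.77 and 6.60 RPKM in Hdac3flox/flox. Its log2 fold change was 0.41 (SE 0.083, adjusted p = 0.0388 from limma), and the adjusted p was 0.0548 with the replicate number as a block and 0.104 with no filter on low values. Ccne1 (chr7:38097984-38107534, minus strand) had 5.35 and 5.50 RPKM in Hdac3cKO, against 4.53 and 4.01 RPKM in Hdac3flox/flox. The groups did not overlap, but the gene missed the threshold, with a log2 fold change of 0.34 (95% interval from 0.12 to 0.56, adjusted p = 0.0558 from limma). It passed under 4 of the 8 alternatives that kept all 4 libraries, with adjusted p from 0.0288 to 0.124 over the 8. Together the E-type cyclins summed to 13.6 and 15.0 RPKM in Hdac3cKO, against 11.3 and 10.6 RPKM in Hdac3flox/flox.

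Of the kinases of the D-type cyclins, Cdk6 was called higher and the more abundant Cdk4 was not called, and the difference between their fold changes was not tested. Cdk4 (chr10:127063534-127067920, plus strand) was the most abundant member by RPKM, above 97.8% of the tested genes by its mean level. It was measured at 111.1 and 112.3 RPKM in Hdac3cKO, against 108.1 and 104.0 RPKM in Hdac3flox/flox. Although these groups did not overlap, the log2 fold change of 0.07 did not pass the test (95% interval from −0.01 to 0.16, adjusted p = 0.162 from limma). Cdk6 (chr5:3341485-3531008, plus strand), a close relative that takes the same partners, had 11.7 RPKM in both Hdac3cKO libraries, against 9.19 and 9.06 RPKM in the Hdac3flox/flox libraries. It was called higher, with a log2 fold change of 0.36 (SE 0.042, adjusted p = 0.0132 from limma), and its reads were 3013 and 2894 in Hdac3cKO and 2355 and 2326 in Hdac3flox/flox. Cdk6 made up 9.51% and 9.46% of the summed level of the 2 kinases in Hdac3cKO, against 7.84% and 8.01% in Hdac3flox/flox. Because Cdk4 outweighs it, that sum moved little, at 122.7 and 124.1 RPKM in Hdac3cKO and 117.3 and 113.1 RPKM in Hdac3flox/flox.

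**Figure D3:**
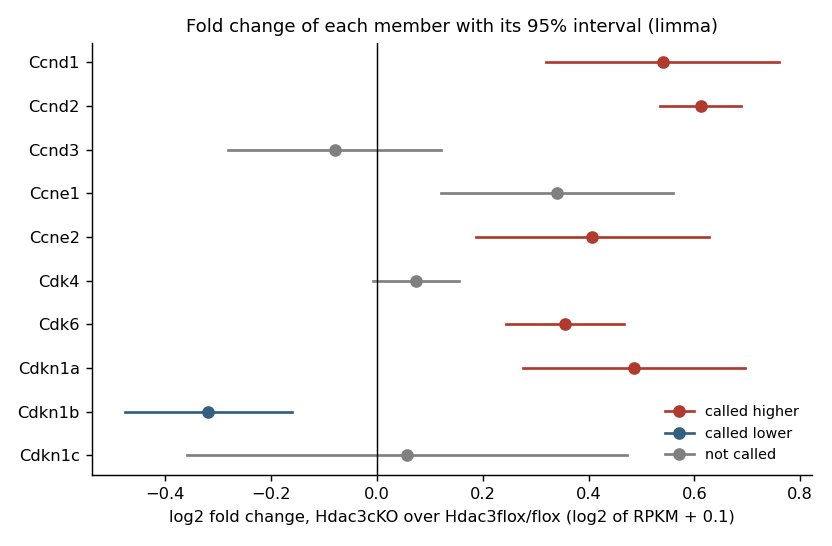
Log2 fold change of each member, Hdac3cKO over Hdac3flox/flox, on the log2(RPKM + 0.1) scale, with the estimate as a point and its 95% interval from limma as a line. Red marks the 5 genes called higher, blue the 1 called lower (Cdkn1b, −0.32) and grey the 4 not called, of which the Ccne1 interval (0.12 to 0.56) also lies above 0.

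Of the inhibitors, Cdkn1a was called higher, Cdkn1b was called lower and Cdkn1c was not called. Cdkn1b (chr6:134920401-134925513, plus strand), which encodes p27 and was the most abundant inhibitor, had 33.9 and 37.8 RPKM in Hdac3cKO, against 44.3 and 45.0 RPKM in Hdac3flox/flox. Both Hdac3cKO libraries were lower, and the log2 fold change was −0.32 (SE 0.059, adjusted p = 0.0323 from limma). Its reads were 2848 and 3031 in Hdac3cKO and 3694 and 3758 in Hdac3flox/flox, a scaled ratio of 0.802 with an exact 95% interval from 0.775 to 0.830. Cdkn1a (chr17:29090976-29100727, plus strand), which encodes p21, a target of p53 and a gene whose RNA rises in many cells treated with HDAC inhibitors, was at 5.24 and 4.75 RPKM in Hdac3cKO, against 3.59 and 3.48 RPKM in Hdac3flox/flox. It was called higher with a log2 fold change of 0.49 (SE 0.079, adjusted p = 0.0247 from limma), on 215 and 186 reads in Hdac3cKO and 146 and 142 reads in Hdac3flox/flox. The reads of Cdkn1a are the smallest whole numbers that its values allow, since the exon length behind them, 2223 bases, differs from the annotated 3553 bases. Cdkn1c (chr7:143458339-143461050, minus strand), which encodes p57 and is imprinted, was the lowest member, at 1.78 and 1.56 RPKM in Hdac3cKO and 1.77 and 1.44 RPKM in Hdac3flox/flox. With 54 to 67 reads per library and overlapping groups, no difference was detectable at this depth (log2 fold change 0.06, 95% interval from −0.36 to 0.47, adjusted p = 0.829 from limma).

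Summed over the 3 inhibitors, the level was 40.9 and 44.1 RPKM in Hdac3cKO, against 49.7 and 49.9 RPKM in Hdac3flox/flox. Cdkn1b made up 82.8% and 85.7% of this sum in Hdac3cKO, against 89.2% and 90.1% in Hdac3flox/flox, while the share of Cdkn1a was 12.8% and 10.8% in Hdac3cKO, against 7.22% and 6.97% in Hdac3flox/flox. The ratio of Ccnd2 to Cdkn1b, both as RPKM, was 2.07 and 1.89 in Hdac3cKO, against 1.05 and 1.02 in Hdac3flox/flox. Per length, the 2 RNAs were thus at about the same level in Hdac3flox/flox and not in Hdac3cKO. From reads and not per length, the mean ratio was 4.09 in Hdac3cKO and 2.14 in Hdac3flox/flox, so the equal level depends on the exon lengths used. An exact permutation test of such a ratio cannot go below p = 0.333 with 2 against 2 libraries, and the ratio is given as a description with no test.

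**Figure D4:**
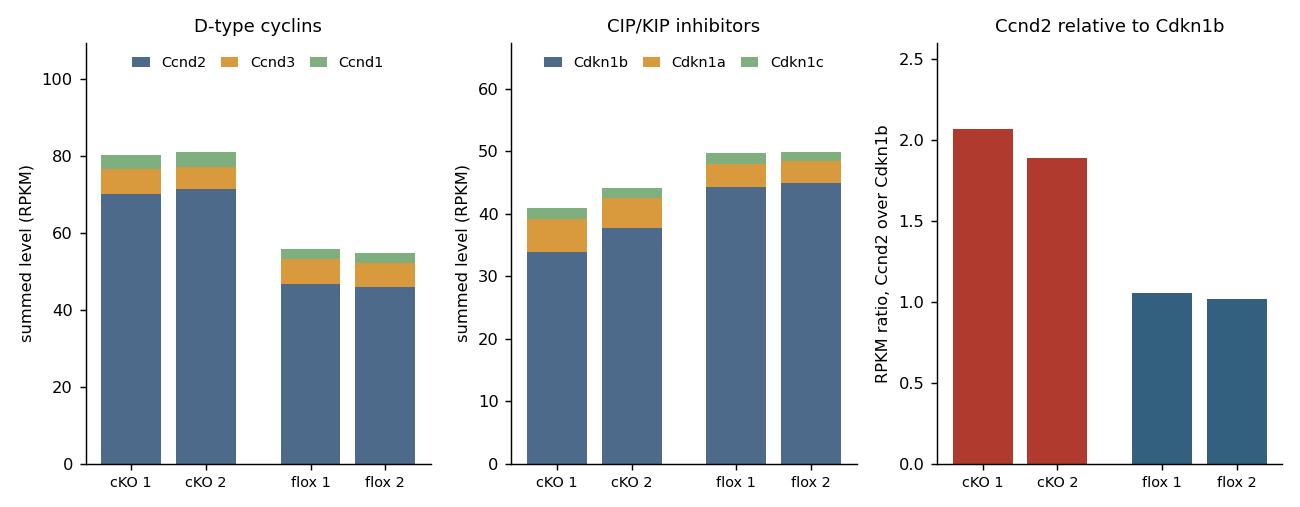
Summed level in RPKM of the D-type cyclins (left) and of the CIP/KIP inhibitors (middle), stacked by gene, and the RPKM ratio of Ccnd2 to Cdkn1b (right), in Hdac3cKO libraries 1 and 2 (cKO) and Hdac3flox/flox libraries 1 and 2 (flox). The D-type sum is 80.3 and 81.0 in Hdac3cKO and 55.7 and 54.8 in Hdac3flox/flox, and the ratio is 2.07 and 1.89 in Hdac3cKO and 1.05 and 1.02 in Hdac3flox/flox.

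Ccnd2 and Cdk6 were called under all 8 alternatives with 4 libraries. Ccnd1, Cdkn1a and Cdkn1b were called under all but the fit with no filter on low values, where their adjusted p values from limma were 0.0584, 0.0658 and 0.095. With 1 library left out, the fit had 3 libraries, and every called member kept its direction but lost its call, except Ccnd2 without Hdac3flox/flox replicate 1 (adjusted p = 0.0486 from limma). The adjusted p of the 6 called members then lay between 0.0486 and 0.168, whichever of the 4 libraries was left out. Since no source ties each library to a mouse, the p-values measure the spread between these libraries, part of which may be technical.

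Several members overlap other genes on the opposite strand, and the library kit does not mark strand, so reads of the shared bases cannot be told apart. Ccnd1 shares 1100 exon bases with Oraov1, which had 2.20 and 2.35 RPKM in Hdac3cKO and 2.62 and 2.31 RPKM in Hdac3flox/flox (log2 fold change −0.11, adjusted p = 0.535 from limma). Ccnd3 shares 361 bases with Bysl, a ribosome assembly gene that was called higher (log2 fold change 0.31, adjusted p = 0.0427). Ccne2 shares 609 bases with Ints8 (log2 fold change 0.15, adjusted p = 0.207) and Cdk4 shares 641 bases with Tspan31 (log2 fold change −0.01, adjusted p = 0.817). Beside the 7915 or more reads of Ccnd2, its antisense partner 9330179D12Rik had 5 to 15 reads per library. No row was found for Gm43126, which shares 372 bases with Ccnd2, so its reads are not known. The same holds for Gm44732, which shares 625 bases with Cdkn1c, and AC167363.2, which shares 273 bases with Cdkn1a.

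Most of the listed genes that E2F transcribes for S phase were higher in Hdac3cKO. This list and those below were chosen with earlier results of these data known, so their counts are a description. Of 18 tested genes of DNA replication and proliferation, 15 were called higher, none lower and 3 not at all, and the median log2 fold change was 0.39. Over all tested genes 7.68% were called higher and 11.0% lower, which are the shares beside every list count below. Pcna, the clamp of the replication machinery, had 106.7 and 104.3 RPKM in Hdac3cKO, against 73.6 and 74.1 RPKM in Hdac3flox/flox (log2 fold change 0.51, adjusted p = 0.00412 from limma). In the study, staining for the PCNA protein was read as an end of GC proliferation with the loss of Hdac3. That staining is of protein in single follicles, the values here are of RNA in bulk, and the difference was not tested. Whether the stained mice matched these in age and PMSG treatment is not stated. Mcm5 and Mcm4, subunits of the replicative helicase, rose by 0.59 and 0.50 on the log2 scale (adjusted p = 0.00445 and 0.00496), and Cdc6, which loads that helicase, rose by 0.73 (adjusted p = 0.00644). At an unadjusted p under 0.05 from limma 18 were higher and 0 lower, and the calls came to 13 to 18 higher and 0 lower under the 8 alternatives with all 4 libraries. With any 1 library left out, at most 1 of these genes was called, and the median log2 fold change stayed between 0.38 and 0.40.

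Of 13 tested genes of the retinoblastoma and E2F family, 4 were called higher and none lower, with a median log2 fold change of 0.26 (8 higher and 1 lower at an unadjusted p under 0.05 from limma, and 8 higher and 2 lower by limma voom on the reads). E2f1, an activating E2F, had 14.8 and 14.5 RPKM in Hdac3cKO, against 9.56 and 9.63 RPKM in Hdac3flox/flox (log2 fold change 0.60, adjusted p = 0.00564 from limma). Its dimer partner Tfdp1 (0.34), the retinoblastoma relative Rbl1 (0.34) and the repressive E2f8 (0.46) were called higher as well, with log2 fold changes in parentheses. Of 9 tested partner kinases and cyclins, 4 were called higher and none lower, namely Cdk1 (0.30), Ccnb1 (0.33), Ccna2 (0.32) and Ccnf (0.26 as a log2 fold change), which act from S phase to mitosis. At an unadjusted p under 0.05 from limma 6 were higher and 1 lower, the same counts as limma voom called. Cdk2, the partner of the E-type cyclins, missed the threshold (log2 fold change 0.20 with an adjusted p of 0.0648 from limma, named after its value was seen).

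Among 21 tested genes of cyclin and inhibitor turnover and of kinase activation, 5 were called higher and 1 lower, beside 7.68% and 11.0% of all tested genes. The counts were 1 higher and 0 lower with no filter on low values, 6 and 0 with median-of-ratios scaling and 7 and 4 with limma voom. Skp2, the ubiquitin ligase subunit that marks p27 protein for degradation, had 11.4 and 11.2 RPKM in Hdac3cKO, against 8.33 and 8.65 RPKM in Hdac3flox/flox (log2 fold change 0.41, adjusted p = 0.012 from limma). Wee1, an inhibitory kinase of CDKs (0.38), Dtl, which targets replication licensing factors and p21 (0.39), and Cdc25a, a phosphatase that activates CDKs (0.31), were also higher, with log2 fold changes in parentheses. The gene called lower was Ambra1 (log2 fold change −0.17, adjusted p = 0.0499 from limma), named after its value was seen. Of the 4 INK4 inhibitors, Cdkn2c and Cdkn2d were tested and not called, with log2 fold changes of 0.07 and 0.04 (0 at an unadjusted p under 0.05 from limma, and 0 called by limma voom), and Cdkn2a and Cdkn2b had at most 12 reads in any library and were below the filter.

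Of 15 tested targets of p53 other than Cdkn1a, none was called higher and 2 were called lower, with a median log2 fold change of 0.00. These counts stand beside 7.68% called higher and 11.0% called lower over all tested genes. At an unadjusted p under 0.05 from limma 1 was higher and 3 lower, and limma voom called 1 higher and 2 lower. Trp53inp1 fell to 14.7 and 14.1 RPKM in Hdac3cKO, against 19.8 and 20.2 RPKM in Hdac3flox/flox (log2 fold change −0.47, adjusted p = 0.00813 from limma), and Sesn1, a stress-response gene, fell by 0.50 on the log2 scale. Gadd45a and Aen, the next by p, had log2 fold changes of −0.31 and 0.21 and were not called (adjusted p = 0.0522 and 0.117 from limma).

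**Figure D5:**
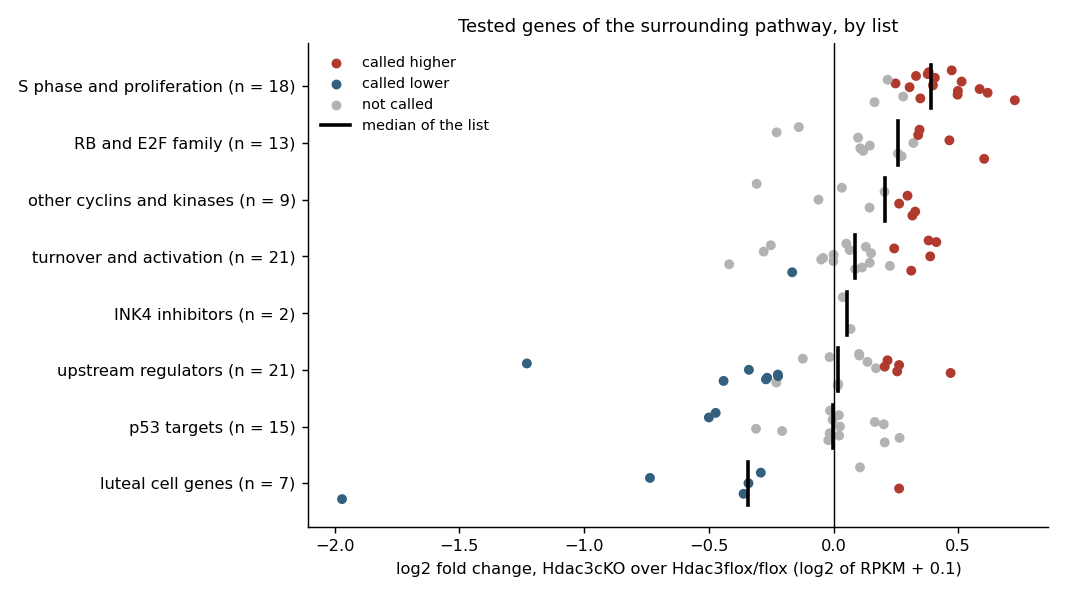
Log2 fold changes, Hdac3cKO over Hdac3flox/flox on the log2(RPKM + 0.1) scale, of the tested genes of 8 lists. Each point is a gene, coloured by its call, and black bars are list medians. The S phase and proliferation genes all lie above 0, with a median of 0.39, and the luteal cell genes have a median of −0.34.

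Among upstream regulators, 5 of 21 tested genes were called higher and 7 lower, beside 7.68% and 11.0% of all tested genes. Hdac3 itself, the gene deleted by design, is in this list and is among those called lower. Median-of-ratios scaling gave 6 in each direction. A correction for GC content and length, chosen after seeing the data, gave 7 higher and 5 lower. Myc, a transcription factor that binds E boxes, fell to 14.8 and 14.0 RPKM in Hdac3cKO, against 30.3 and 37.9 RPKM in Hdac3flox/flox (log2 fold change −1.23, adjusted p = 0.00918 from limma). Whether the fall of Myc bears on any member, Cdk4 with its 4 E boxes included, was not tested. Gata4 and Gata6, transcription factors of GCs, rose by 0.47 and 0.26 on the log2 scale (adjusted p = 0.00989 and 0.0105 from limma). Foxo1, named after its value was seen and known in GCs as a repressor of Ccnd2 and in many cells as an activator of Cdkn1b, had a log2 fold change of −0.27. Whether that change bears on Ccnd2 or Cdkn1b was not tested. Of 7 tested genes listed for luteal cells, 1 was called higher and 5 lower. The list shares genes with the theca markers, Lhcgr among them, so it does not stand for luteal cells alone. Akr1c18, an enzyme that breaks down progesterone, fell by 1.97 on the log2 scale, the prolactin receptor Prlr by 0.34 and the prostaglandin receptor Ptgfr by 0.74, whereas the LH receptor Lhcgr rose by 0.26. With the replicate block, 3 upstream regulators were called higher and 6 lower, and 1 luteal gene was called higher and 3 lower. With no filter on low values these counts were 2 and 4 for the regulators and 0 and 2 for the luteal genes.

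Markers of other cell types moved in the same libraries. The counts below stand beside 7.68% called higher and 11.0% called lower over all tested genes. Of 10 tested GC markers, 6 were called higher and 2 lower, and Foxl2, the gene after which the Cre is named, was among those lower (125.9 and 127.5 RPKM in Hdac3cKO, against 156.0 and 149.9 RPKM in Hdac3flox/flox). Of 10 endothelial markers 7 were called lower and none higher, and their summed level was 84.7 and 85.3 RPKM in Hdac3cKO, against 117.3 and 114.9 RPKM in Hdac3flox/flox. None was higher and 5 of 9 were lower among stromal markers, 3 of 7 were lower among smooth muscle markers, and 1 of 5 among leukocyte markers. Oocyte markers summed to 266.3 and 236.8 RPKM in Hdac3cKO and 217.5 and 219.2 RPKM in Hdac3flox/flox, with 1 of 9 called higher. All 9 oocyte markers had fold changes above 0, with a median log2 fold change of 0.19. Of these, 4 were higher and 0 lower at an unadjusted p under 0.05 from limma, and limma voom called 3 higher and 0 lower. Of 7 theca markers 1 was called higher and 2 lower, and of 6 markers of surface epithelium 2 were called lower while the other 4 had fold changes above 0 and the median log2 fold change was 0.26. The 2 epithelial calls were lost with median-of-ratios scaling, with limma voom, with the replicate block, with no filter and with that correction for GC content and length. At an unadjusted p under 0.05 from limma, 0 endothelial, 0 stromal and 0 leukocyte markers and 1 smooth muscle marker were higher, and limma voom called 0 endothelial, 1 stromal, 0 leukocyte and 1 smooth muscle marker higher. With any 1 library left out, no marker of these lists was called in either direction. The part of these markers in the values of the cyclins and inhibitors was not tested.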

How the data were processed

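The authors deposited RPKM values per gene for each library, made from Illumina TruSeq reads. Bowtie 0.12.2 and mm8 are credited to the submitters' processing notes. For the counting tool, the sources used here give no name. The exon lengths implied by the values equalled those of GENCODE M21 on GRCm38 for 90.9% of 26800 matched rows (relative tolerance 1e-06), which is at odds with mm8, so gene positions are given on GRCm38. The same relation gave the library totals and whole reads for each gene. Reads in genes were 18410602 and 17580416 for Hdac3cKO and 18268753 and 18305064 for Hdac3flox/flox. Intervals of read ratios (95%, Clopper-Pearson) cover counting error only.

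The filter kept genes that reached 0.5 RPKM in 2 or more libraries. They were compared on log2(RPKM + 0.1) by limma 3.58.1 (R 4.3.3, trended prior, 1 term for genotype, leaving 2 residual degrees of freedom), a scale which understates changes of low genes. The fit was tested on simulated data. Alternatives were other pseudocounts (1 and 0.01), filters, median-of-ratios scaling, limma voom on recovered reads, a replicate block and each library left out. A correction for GC content and exon length (known for 97.2% of tested genes) was added after seeing the data. Copies of at least 95% identity were searched with BLAST 2.17.0, and beside genes overlapping a member only short copies of Cdk6 sequence were found, of which the 3 with a row in the table had at most 2 reads in any library. Tables used Python 3.11.15, pandas 2.3.3, numpy 2.4.6 and scipy 1.17.1, and plots matplotlib 3.10.9. Named genes were the members, up to 4 tested genes per pathway list with the smallest p, and Hdac3, Foxl2 and Pcna. Outside this rule stand the genes overlapping a member, the INK4 genes below the filter, Inha, and Cdk2, Foxo1 and Ambra1, chosen after their values were seen. The members and lists were chosen with earlier results of these data known.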

Additional observations from a re-analysis of the deposited data

How the results depend on the processing

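Of 15528 tested genes, 1193 were called higher and 1711 lower, 2904 in all. Median-of-ratios scaling gave 1526 higher and 1382 lower, and a correction for GC content and exon length, chosen after seeing the data, gave 1954 higher and 1198 lower. With no filter on low values, where more genes with few reads enter the fit, 954 were called (410 higher and 544 lower) and 2 members. With limma voom on recovered reads 4651 were called (1867 higher and 2784 lower). With each library left out in turn, 0 to 98 genes were called (0 to 45 higher, 0 to 53 lower) and 0 to 1 members, while 4075 to 4357 genes had an unadjusted p under 0.05 from limma. The replicate block gave 2143 genes (891 higher and 1252 lower) and among the members removed the call of Ccne2 only. The numbers do not pair the libraries by the labels, and deviations of same-numbered libraries correlated at 0.08 over all tested genes and −0.01 over genes above 5 RPKM. Cdkn1c had a log2 fold change of −0.034 without Hdac3cKO replicate 1 and −0.081 without Hdac3flox/flox replicate 2, within −0.081 to 0.19 over the 4 libraries left out. Cdk4 was called in 1 alternative, the GC and length correction (log2 fold change 0.15, adjusted p = 0.0359 from limma). Taken from reads and not per length, the share of Ccnd2 was 90.3% in Hdac3cKO and 86.4% in Hdac3flox/flox, that of Cdkn1b 91.8% in Hdac3cKO and 94.8% in Hdac3flox/flox, and the Ccnd2 to Cdkn1b ratio 4.09 in Hdac3cKO and 2.14 in Hdac3flox/flox, since Ccnd2 is the longer transcript. Of the 48 pathway genes called, Hdac3 among them, 28 were called with no filter and 41 with the replicate block. Their directions did not change under any alternative, those with 1 library left out included. With 1 library left out, no gene of the E2F family, partner, turnover, p53 or luteal lists was called. Depth limits Cdkn1c, at 54 to 67 reads a library.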
